A study of Mus musculus with 35 samples.

Results

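The genes examined here code for the NLRP3 inflammasome and the cytokines that act with it: the sensor Nlrp3, the adaptor Pycard, the caspases Casp1 and Casp4, the pore-forming protein Gsdmd, the interleukin-1 (IL-1) family members Il1a, Il1b, Il18 and Il1rn, and the cytokine Tnf. They were taken by gene symbol, and all 10 had a row among the 21236 genes of the count table. Each was followed across 35 libraries of sorted microglia from the midbrain, the striatum and the prefrontal cortex (PFC).

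Microglia are the resident macrophages of the brain and a main source of IL-1 and TNF there. An inflammasome forms when a sensor such as NLRP3 gathers the adaptor ASC, the product of Pycard, which in turn activates caspase-1. Caspase-1 cuts pro-IL-1β and pro-IL-18 into active cytokines and opens gasdermin D pores in the membrane, while caspase-4 (called caspase-11 in the mouse) cuts gasdermin D in response to bacterial lipopolysaccharide inside the cell. Because the proteins are stored as precursors and cut later, transcript levels describe the supply of components and not the activity of the complex.

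The mice were Tmem119-2A-CreERT2/Ai14(RCL-tdTomato)-D animals, heterozygous for both alleles, 17 to 18 weeks of age. All received tamoxifen, 75 mg per kg on 5 consecutive days, and were killed 10 to 21 days later, so no untreated or reporter-negative group was compared. The tdTomato reporter is switched on only in cells that express Tmem119, a microglial gene, and the cells were released from tissue with enzymes in a heated dissociator before sorting. There were 12 mice, 6 male (odd numbers) and 6 female (even numbers), giving 12 midbrain, 12 striatum and 11 PFC libraries; the PFC sample of male mouse 3 was lost.

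Libraries held between 37680501 and 54131421 counts, with a median of 47378508. Levels are given as CPM, counts relative to the library's total after scaling by trimmed mean of M-values (TMM). The summed level of 10 microglial markers lay between 37800 and 48410 CPM in every library, and 5 of the 10 differed between regions. Markers of other cells were lower: neuron markers summed to at most 30.4 CPM, lymphocyte markers to at most 13.6 CPM, endothelial markers to at most 67.6 CPM and oligodendrocyte markers to at most 833 CPM. Oligodendrocyte sums averaged 398.2 CPM in the midbrain, 476.9 in the striatum and 334.9 in the PFC, and 1 of 7 genes passed the test for region. Neuron sums averaged 6.05, 10.65 and 16.16 CPM in the same order, and 4 of 8 genes passed, each called higher outside the midbrain. Monocyte sums averaged 987, 932 and 1146 CPM and were almost wholly Nr4a1 (mean 1014 CPM), which is also on the ex vivo list below, while Ly6c2 was at 0 in 18 of the 35 libraries. Of the monocyte list, 2 of 6 genes passed: Ly6c2 was lower outside the midbrain, and Ccr2 was higher (1.34, 2.59 and 4.05 CPM). Border macrophage markers summed to at most 17.3 CPM, except for 130.5 CPM in the midbrain library of female mouse 6, and 2 of 7 passed the test for region. Both were lower outside the midbrain by mean: Ms4a7 averaged 9.99 CPM in the midbrain, 0.772 in the striatum and 0.19 in the PFC, and Clec12a 1.17, 0.312 and 0.0499. These midbrain means include that library of female mouse 6. The summed border macrophage level had a midbrain mean of 17.38 CPM but a median of 7.028, beside medians of 5.691 in the striatum and 6.79 in the PFC. Of the neutrophil list, 4 of 9 genes had a row, and its sum was almost wholly Csf3r (mean 318.9 CPM), while S100a8 and S100a9 were at 0 in 26 and 27 of the 35 libraries. Of these 4 genes, 1 passed the test for region: Ngp was called higher in the PFC (1.81 CPM) than in the midbrain (0.0259). The mean log2 CPM of this list was 4.816 in the PFC library of male mouse 1 and at most 0.72 in any other library. Of the lymphocyte list, 1 of 5 genes passed: Cd79a averaged 1.84 CPM in the midbrain, 0.840 in the striatum and 0.425 in the PFC. Astrocyte markers were lower in the midbrain (mean 250.1 ± 21 CPM, SD, n = 12) than in the striatum (399.8 ± 74.4) or the PFC (374 ± 96.0, n = 11), and 4 of 8 passed the test for region; their part in the differences below was not tested. A list of 26 immediate early, heat shock and chemokine genes known to rise while cells are dissociated, here called the ex vivo list, summed to between 32500 and 68360 CPM. The striatum library of male mouse 3 bears PFC in its column name and was placed by its GEO label.

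Every member called for an effect of region had less transcript in striatal than in midbrain microglia, and none was called higher. Casp1, Casp4, Il1a, Il1rn and Tnf passed the test for region, 5 of 10 members beside 8.89% of all genes, and Nlrp3, Il1b, Il18, Gsdmd and Pycard did not. The striatum was lower than the midbrain by 0.42 on the log2 scale for Casp1, 0.44 for Casp4, 0.82 for Il1a, 1.93 for Il1rn and 0.68 for Tnf. The PFC was lower than the midbrain for Casp1 and Il1rn. The tests below use edgeR's quasi-likelihood fit with region and sex as terms, and adjusted p-values (Benjamini-Hochberg) cover all 21236 genes; a pair of regions was called where region had an adjusted p under 0.05, the pair an unadjusted p under 0.05 and the fold change exceeded 1.2. In bulk libraries such as these, fewer cells of one kind and less RNA per cell cannot be told apart.

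The count of members called can be set beside the whole table. For region, the share called was 11.6% among genes with a mean of at least 1 CPM. For the striatum against the midbrain, 5 of 10 were called lower, where 2.98% of all genes were called lower and 6.47% in either direction. For the PFC against the midbrain, 2 of 10 were called lower, beside 3.24% of all genes lower and 5.99% in either direction. The median log2 difference of the members was −0.48 for the striatum and −0.26 for the PFC against the midbrain, and over all genes it was 0.01 in each case. In a fit with a term for each mouse, called the blocked fit below, 6 of 10 members passed for region (Nlrp3 was added), beside 14% of all genes; 4 were called in the PFC against the midbrain (6.85% of all genes), 6 in the striatum against the midbrain (8.62%) and 2 in the striatum against the PFC (4.86%). The shares are given as a description of the members.

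**Figure D1:**
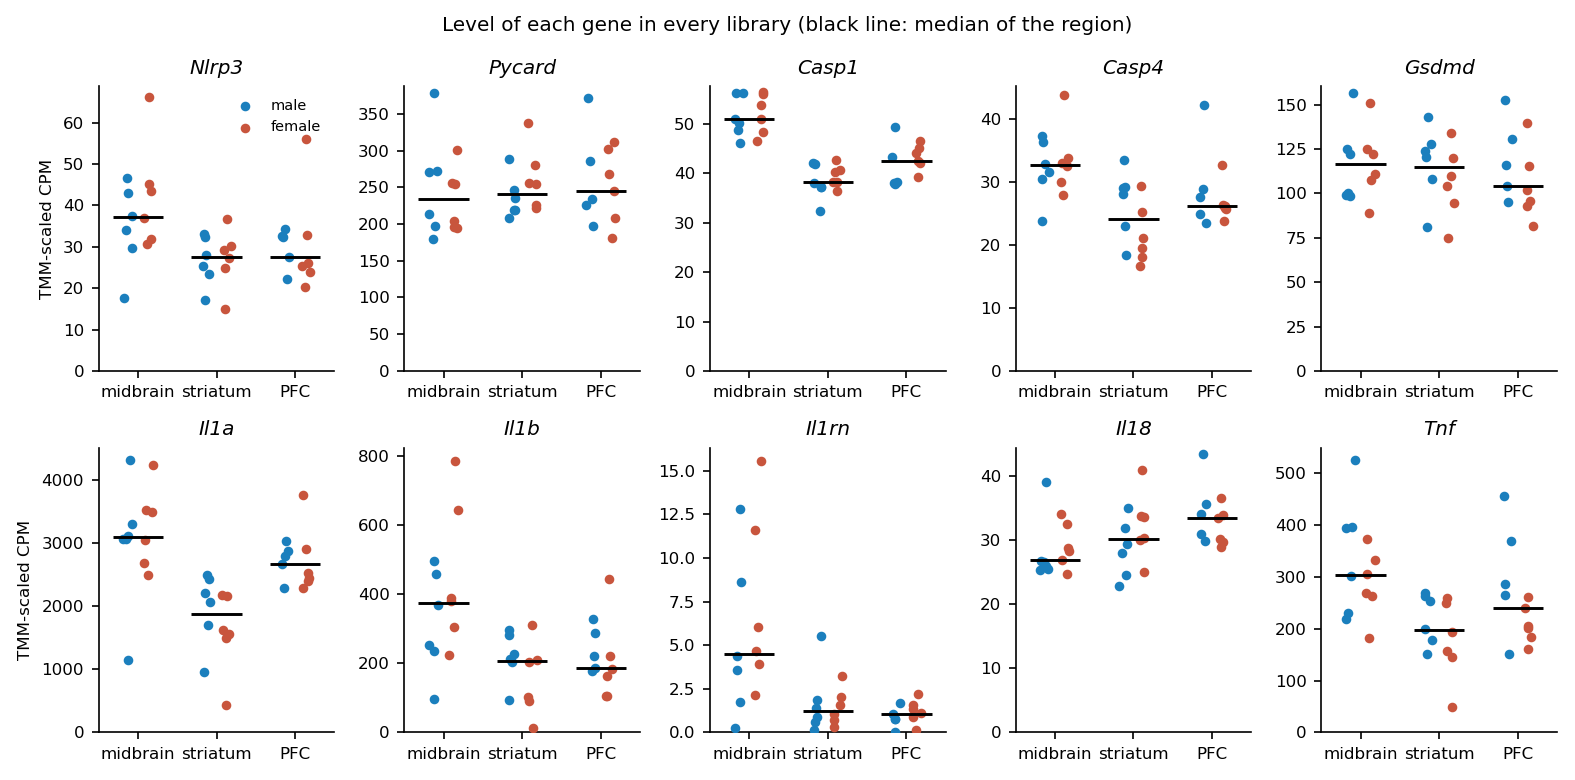
TMM-scaled CPM (y axes, from 0, a scale for each gene) of the 10 genes in every library, by region on the x axes; blue points are males, red points females, and black lines the median of the region. The midbrain Casp1 points lie between 46.1 and 56.5 CPM, above all striatum points, while Il1b and Il1rn spread widely within each region.

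Levels differed greatly between members, whose positions are given below on GRCm38 (GENCODE M21 annotation). Per kilobase of exon, the mean over 35 libraries was 1288 CPM for Il1a, which ranked 41 among all genes by CPM and held 0.254% of all counts. Tnf (156 CPM per kb) and Il1b (139) followed, then Pycard (65.7) and Gsdmd (47.8). Il18 (29.8) and Casp1 (29.7) were alike, as were Nlrp3 (7.88) and Casp4 (7.64), and Il1rn was lowest at 0.549. The order by level therefore ran from 3 cytokines through the adaptor and the pore former to Il18, Casp1, the sensor and Casp4, with the receptor antagonist last. With the length of the principal transcript in place of all exons, Il1b (196) stood above Tnf (156) and Casp4 (19.8) above Nlrp3 (7.95), and the other members kept their place.

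Nlrp3 (chr11:59541568-59566956), the sensor, ranged from 17.6 to 66.3 CPM in the midbrain (median 37.3), from 15.0 to 36.6 in the striatum (27.6) and from 20.3 to 55.96 in the PFC (27.5). The regions overlapped, and the highest midbrain and PFC values both came from female mouse 12. The log2 difference of striatum from midbrain was −0.52 ± 0.16 (SE), with lower values in 11 of 12 mice, but the test for region gave an edgeR adjusted p of 0.0708 and the gene was not called. In the blocked fit, which has a term for each mouse and so compares regions within animals, the edgeR adjusted p for region was 0.0205, and Nlrp3 was then called lower in the striatum (−0.49) and in the PFC (−0.39). The exception in the striatum was male mouse 5, with 33.0 CPM there against 17.6 in the midbrain.

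Pycard (chr7:127989708-127993867), the adaptor, showed no difference between regions that these libraries could resolve. It ranged from 179.1 to 377.9 CPM in the midbrain, 208.7 to 337.2 in the striatum and 180.9 to 371 in the PFC, with medians of 234.2, 240.6 and 245.5. The log2 difference between striatum and midbrain was 0.04 (95% interval −0.18 to 0.26) and that between PFC and midbrain 0.08 (−0.14 to 0.31). Levels did differ between mice: mice 1 to 6 averaged 288.8 ± 46.8 CPM in the midbrain and mice 7 to 12 averaged 197.4 ± 11.3 (SD, n = 6 each), a split by mouse number that no label calls a batch.

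Casp1 (chr9:5298517-5307265), the caspase that cuts pro-IL-1β, was the only member whose midbrain and striatum libraries did not overlap. Midbrain libraries lay between 46.1 and 56.5 CPM (median 51.0), striatum libraries between 32.4 and 42.8 (38.3) and PFC libraries between 37.9 and 49.4 (42.6). Such separation of midbrain from striatum was found for 0.297% of all genes, and PFC libraries overlapped both regions. Casp1 fell by 0.42 ± 0.05 (SE) on the log2 scale in the striatum (edgeR adjusted p = 2.04e-06) and was lower in 12 of 12 mice. It fell by 0.29 ± 0.05 in the PFC (edgeR adjusted p = 0.000342), in 11 of 11 mice. The spread within a region was small, an SD of 3.92 CPM over the 12 midbrain libraries and of 2.92 over the 12 striatal ones. Striatum and PFC differed by −0.13 ± 0.05, below the fold required for a call.

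Casp4 (chr9:5308828-5336783), which lies next to Casp1 on chromosome 9, ranged from 23.8 to 43.9 CPM in the midbrain (median 32.7), 16.7 to 33.5 in the striatum (24.1) and 23.4 to 42.2 in the PFC (26.2). It fell by 0.44 ± 0.11 (SE) in the striatum (edgeR adjusted p for the pair = 0.00734), in 10 of 12 mice. The PFC value was −0.23 ± 0.11, under the fold required. Male mouse 5, with 28.1 CPM in the striatum and 23.8 in the midbrain, and male mouse 7, with 33.5 and 31.6, went the other way. Leaving out female mouse 12, whose midbrain library was the highest, raised the edgeR adjusted p for region from 0.0167 to 0.0534. With the mean of the ex vivo list as a covariate it was 0.058, with a difference of −0.36 in the striatum, and with that covariate and the mouse block it was 0.0207.

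Gsdmd (chr15:75862327-75867408), the pore former, showed no difference between regions that these libraries could resolve. It was lower than in the midbrain in 7 of 12 mice in the striatum and in 9 of 11 in the PFC. It ranged from 89.1 to 156.4 CPM in the midbrain, 74.6 to 142.8 in the striatum and 81.8 to 152.4 in the PFC. The edgeR adjusted p for region was 0.887, and the log2 difference was −0.07 for the striatum (95% interval −0.27 to 0.13) and −0.07 for the PFC (−0.28 to 0.13). Of the adaptor, the caspase it activates and the pore former that caspase cuts, only Casp1 passed the test for region.

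**Figure D2:**
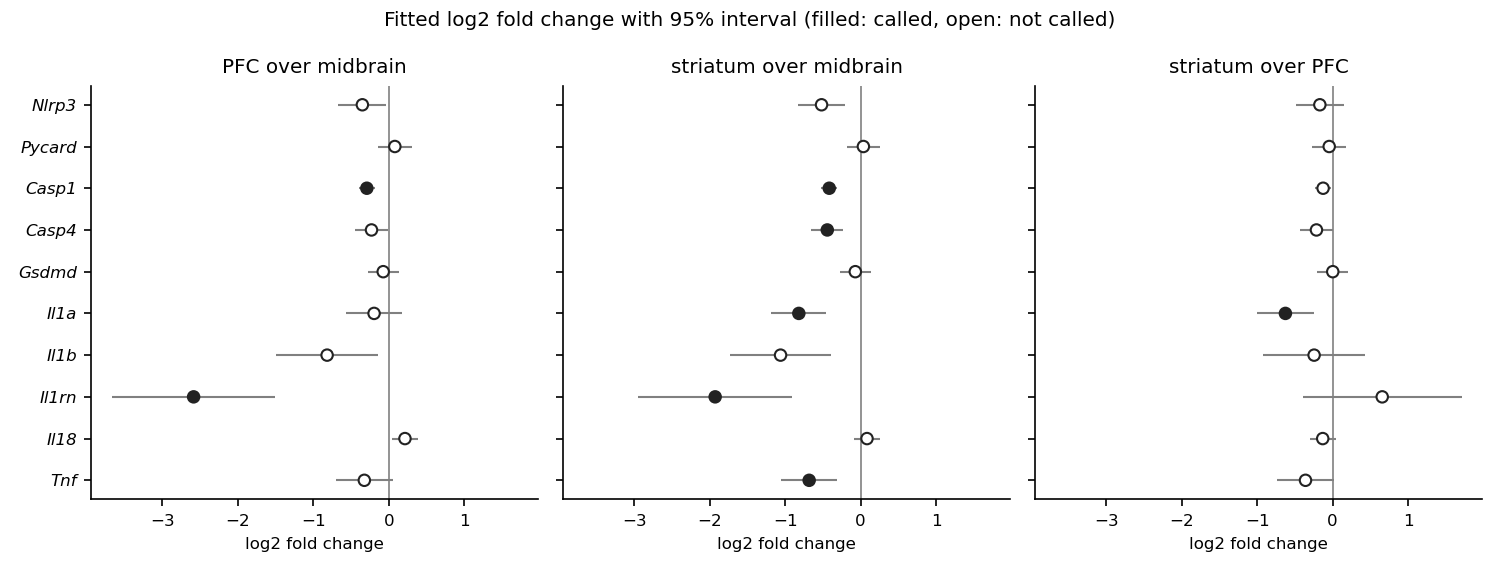
Fitted log2 fold change (x axis) of each gene for PFC over midbrain, striatum over midbrain and striatum over PFC, with bars for the 95% interval; filled points were called and open points were not. In the middle panel the 5 called genes lie left of 0, from −0.42 for Casp1 to −1.93 for Il1rn.

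Il1a (chr2:129299610-129309972), the IL-1 cytokine that is active without caspase-1, was by far the most abundant member. In the fit with region and sex, no other member was called lower in the striatum than in both other regions. It ranged from 1149 to 4328 CPM in the midbrain (median 3097), 439.6 to 2504 in the striatum (1887) and 2290 to 3774 in the PFC (2677). The striatum fell by 0.82 ± 0.19 (SE) against the midbrain (edgeR adjusted p = 0.00476; 11 of 12 mice) and by 0.63 ± 0.19 against the PFC (10 of 11 mice). The latter was the only call of a member between striatum and PFC, at an unadjusted p of 0.00233 and an edgeR adjusted p of 0.123, where 0.833% of all genes were called lower and 3.14% in either direction. PFC and midbrain differed by −0.19 (95% interval −0.57 to 0.18), with lower PFC values in 10 of 11 mice. Male mouse 5 had the lowest midbrain value, 1149 CPM, and the highest striatum value, 2504.

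Gm14023, which overlaps Il1a on the other strand and shares 222 exonic bases with it, followed Il1a across libraries (r = 0.991 over 35 libraries after removing group means). The library kit does not mark strand, so reads in the shared stretch cannot be assigned to one gene. The next most similar genes were Il1b (r = 0.907) and Nfkbid (0.88), a regulator of NF-κB. Il1b is also a neighbour of Il1a on chromosome 2.

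Il1b (chr2:129364570-129371139), the precursor cut by caspase-1, varied more between libraries than any member but Il1rn, with a coefficient of variation of 60.1% over 35 libraries. It ranged from 96.2 to 785.3 CPM in the midbrain (median 373.8), 11.8 to 309.4 in the striatum (206.4) and 104.5 to 442.5 in the PFC (185.4). The log2 difference from the midbrain was −1.06 ± 0.34 (SE) in the striatum and −0.82 ± 0.35 in the PFC, with lower values in 11 of 12 and 10 of 11 mice, yet the test for region gave an edgeR adjusted p of 0.0727 and Il1b was not called. With mouse as a block it was 0.0568, while limma-voom, in which the mouse is a random effect, gave 0.0348 and a log2 difference of −1.18 in the striatum, and so called it. Leaving out male mouse 5, whose midbrain library was the lowest, gave 0.0272, while leaving out female mouse 6, whose midbrain library was the highest, gave 0.201. The same library of mouse 6 had the 130.5 CPM of border macrophage markers; without it, the adjusted p was 0.149 and the log2 difference of striatum from midbrain −0.92.

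Il1rn (chr2:24336853-24351494), whose product blocks the IL-1 receptor, was the scarcest member and had the largest fold differences. Midbrain libraries ranged from 0.281 to 15.6 CPM (median 4.52), striatum libraries from 0.165 to 5.52 (1.23) and PFC libraries from 0 to 2.21 (1.03). Counts behind the low values were few: 3 libraries held under 10 counts, and the count of 0 in the PFC of male mouse 1 allows a level of up to 3 counts, or 0.0561 to 0.0789 CPM at the depths of these libraries. Il1rn fell by 2.58 ± 0.55 (SE) in the PFC (edgeR adjusted p = 0.00198; 10 of 11 mice) and by 1.93 ± 0.52 in the striatum (edgeR adjusted p = 0.018; 10 of 12 mice). Ranges overlapped in every pair of regions. In the midbrain the highest value, 15.6 CPM, was again that of female mouse 6; without that library the differences were −2.38 and −1.75. By means that include that library, the border macrophage genes Ms4a7 and Clec12a, also scarce, were likewise highest in the midbrain. So were Cd163, Pf4 and F13a1, which did not pass for region. Mrc1 and Cd209f of the same list were instead highest in the PFC. Mrc1 averaged 4.18 CPM in the midbrain, 3.81 in the striatum and 5.61 in the PFC. The part of these genes in the Il1rn difference was not tested beyond leaving out that library of female mouse 6. The ratio of Il1a to Il1rn had a median of 642 in the midbrain, 1450 in the striatum and 2700 in the PFC.

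Il18 (chr9:50554827-50581840), the other substrate of caspase-1, had higher point estimates outside the midbrain. It ranged from 24.7 to 39.02 CPM in the midbrain (median 26.8), 22.7 to 40.9 in the striatum (30.1) and 28.9 to 43.3 in the PFC (33.4). The PFC was higher than the midbrain in 11 of 11 mice, by 0.22 ± 0.09 (SE) on the log2 scale at an unadjusted edgeR p of 0.0195, but the adjusted p was 0.167 and that for region 0.258, so Il18 was not called. The blocked fit gave 0.20 ± 0.06 with an edgeR adjusted p of 0.0414 for that pair, and of 0.0702 for region.

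Tnf (chr17:35199381-35202007), which is not an inflammasome product but is released by the same cells, ranged from 181.7 to 525.7 CPM in the midbrain (median 303.4), 49.2 to 268.4 in the striatum (197) and 151.6 to 455.9 in the PFC (240.5). It fell by 0.68 ± 0.19 (SE) in the striatum (edgeR adjusted p = 0.0219) and was lower in 12 of 12 mice, with overlapping ranges. The test for region was close to the threshold, with an edgeR adjusted p of 0.0477, which exceeded 0.05 in 9 of the 12 fits that each left out a mouse and was 0.0672 without the striatum library of male mouse 3, whose column name and label disagree. Comparing regions within mice lowered it to 0.000543 and also called Tnf lower in the PFC than in the midbrain (−0.32 ± 0.12) and below the PFC in the striatum (−0.41 ± 0.12).

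**Figure D3:**
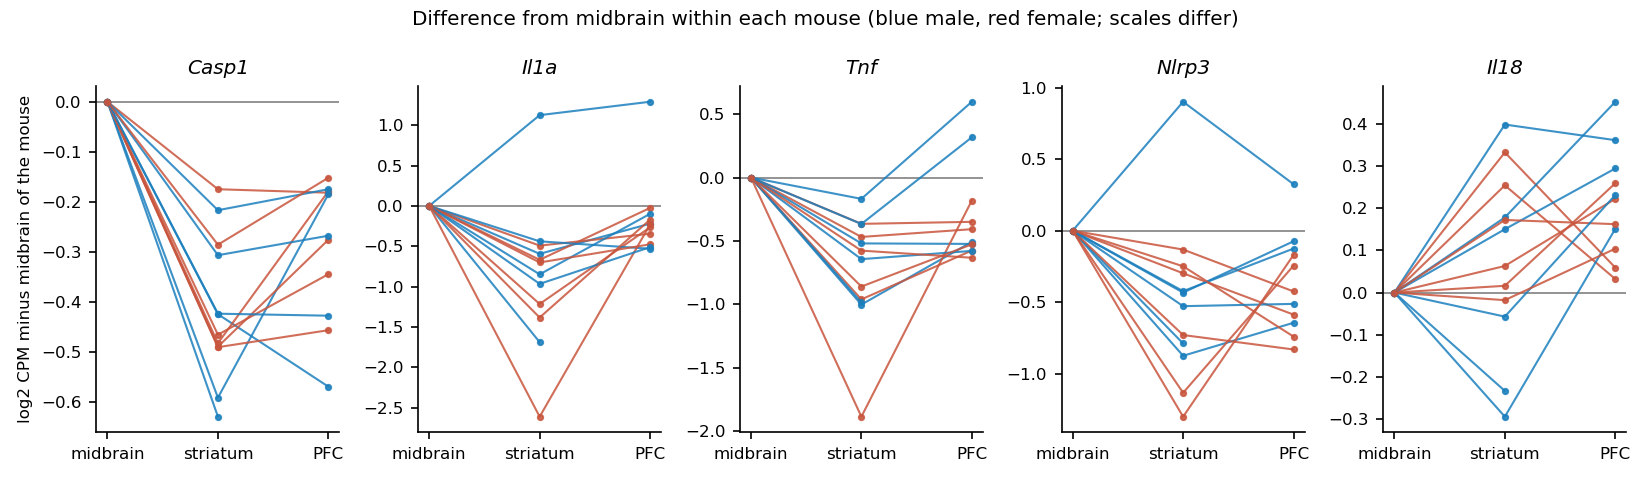
Log2 CPM of Casp1, Il1a, Tnf, Nlrp3 and Il18 in each mouse relative to its own midbrain library (y axes, a scale for each gene), by region on the x axes; blue lines are males, red lines females, and mouse 3 has no PFC point. Casp1 and Tnf lie below 0 in the striatum in all 12 mice, and Il18 lies above 0 in the PFC in all 11.

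Across mice, some members varied together. With regions and sexes centred and averaged per mouse, Il1b and Il1a had Pearson r = 0.903 and Spearman rho = 0.944 over 12 mice (permutation test, adjusted p over 10 relations = 0.0004 and 0.0001). Il1b and Nlrp3 had r = 0.761 (permutation, adjusted p = 0.0199) and rho = 0.755 (adjusted p = 0.0304). Without the 2 mice farthest from the median of Il1b, these r were 0.786 and 0.693. Within mice 1 to 6 they were 0.599 and 0.345 and within mice 7 to 12 0.978 and 0.934, and the difference between these subsets was not tested. No relation of Tnf with Il1b (r = 0.295, permutation adjusted p = 0.498) or Il1a (r = 0.337, 0.468) passed. Their rho were −0.021 and 0.035. The r of Tnf with Il1b and Il1a were 0.214 and 0.441 for the subset of mice 1 to 6. For mice 7 to 12 these r were 0.602 and 0.612. Nor did Casp1 pass with Casp4 (r = −0.243, 0.554) or Il18 (r = 0.471, 0.252), the latter with r = 0.954 within the first subset and −0.406 within the second. With 12 mice, a test that did not pass does not exclude a relation.

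The 3 libraries with the lowest mean log2 CPM of the ex vivo list, striatum of female mouse 8, midbrain of male mouse 5 and striatum of male mouse 3, also had low IL-1 transcripts. By the summed CPM of that list the lowest was the striatum of female mouse 12 (32500 CPM), where Il1b was 210.2 CPM, above the striatum median. In the striatum of mouse 8, Il1a was 439.6 CPM, Il1b 11.8 CPM and Tnf 49.2 CPM, each the lowest of its gene in all 35 libraries. Across mice, Il1b and the mean of the ex vivo list had r = 0.609 (permutation adjusted p = 0.113) and rho = 0.678 (adjusted p = 0.0498), and Tnf and that list had r = 0.0967 (permutation adjusted p = 0.765). Only 1 of the 26 genes of the list, Klf6, differed between regions. With the list as a covariate and no block, Casp4 (striatum against midbrain −0.36, edgeR adjusted p for region 0.058) and Tnf (−0.61, 0.0961) were no longer called, leaving 3 members. A fit added after the data were seen had the list as a covariate beside the mouse block. In it, the striatum and midbrain differed for Casp1 by −0.40 (edgeR adjusted p for region 4.69e-06), for Casp4 by −0.36 (0.0207) and for Il1a by −0.52 (1.13e-05). For Il1rn the difference was −1.60 (0.00472), for Nlrp3 −0.29 (0.027) and for Tnf −0.58 (0.00132). In the blocked fit without the list, the difference had been −0.85 for Il1a, −1.12 for Il1b (−0.59 with it), −0.49 for Nlrp3 and −0.42 for Casp1. Another fit added after the data were seen left out the 3 libraries lowest by the mean, and 7 members passed the test for region. Nlrp3, Il1b and Il18 were added and Tnf was lost (edgeR adjusted p = 0.0646). The share of all genes called in these fits is not given.

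**Figure D4:**
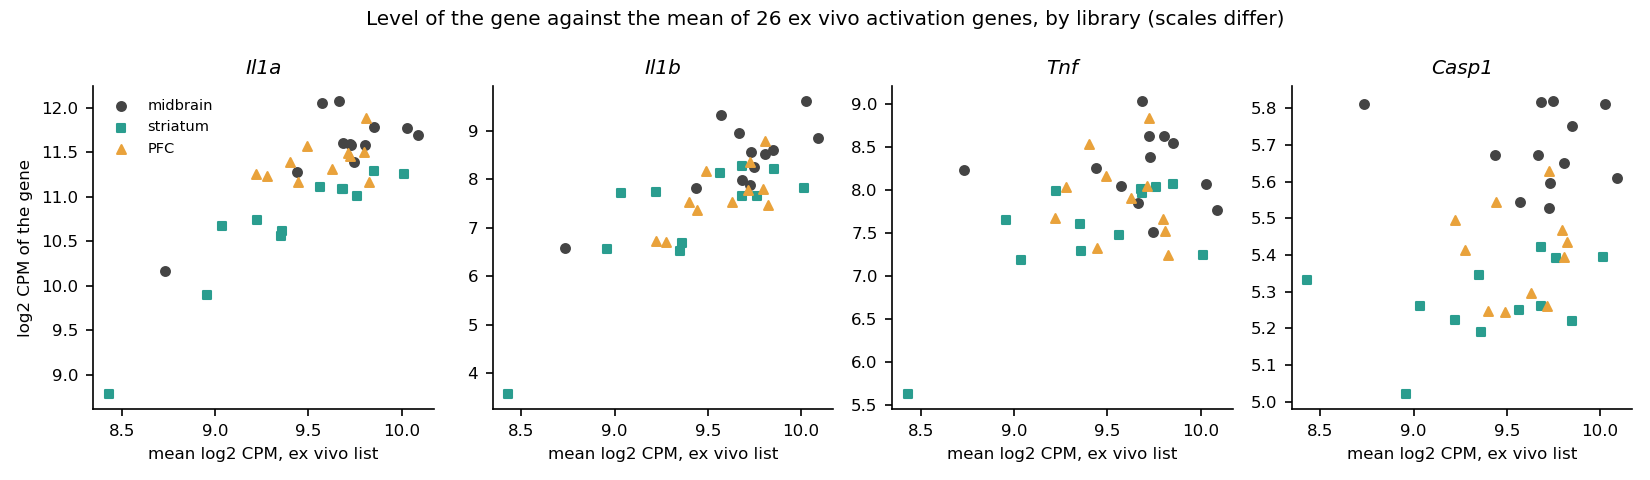
Log2 CPM of Il1a, Il1b, Tnf and Casp1 (y axes, a scale for each gene) against the mean log2 CPM of the 26 ex vivo genes (x axes) in 35 libraries; symbols mark the region. The point farthest left is the striatum library of mouse 8, lowest for Il1a, Il1b and Tnf; its Casp1 value lies among the other striatum libraries.

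For sex, only Tnf was called, higher in males by 0.37 ± 0.16 (SE) on the log2 scale, at an unadjusted edgeR p of 0.0236 and an adjusted p of 0.501, under a rule that called 4.13% of all genes. With counts summed per mouse, so that each animal counted once, the difference was 0.37 ± 0.20 (95% interval −0.02 to 0.76, edgeR adjusted p = 1), and 0 of 10 members were called, beside 3.1% of all genes. In the PFC, Tnf ranged from 151.6 to 455.9 CPM in 5 males and from 160.3 to 261.5 in 6 females, so the sexes overlapped. Within the striatum, Casp4 was higher in males by 0.31 ± 0.15 (edgeR adjusted p = 1), where the same rule, which uses the unadjusted p, called 2.28% of all genes. No member had an interaction of sex and region (edgeR adjusted p of 1 for all 10, the lowest unadjusted p being 0.219 for Casp4); over all genes, 0 passed the adjusted threshold and 632, or 2.98%, had an unadjusted p under 0.05.

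Other genes of the pathway were counted from lists of 87 symbols, of which 78 had a row. Of these, 16 passed the test for region, beside 8.89% of all genes and 11.6% of those averaging at least 1 CPM. Against the midbrain, 8 were called lower and 3 higher in the striatum, and 7 lower and 2 higher in the PFC. Of all genes, 2.98% were called lower and 3.5% higher in the striatum, and 3.24% lower and 2.75% higher in the PFC. The counts called higher were thus near the share of all genes. With lists this short, the counts per list below are descriptions. The median log2 difference from the midbrain was −0.07 in the PFC and −0.09 in the striatum.

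Among 12 genes of NLRP3 priming and activation, 3 passed. Txnip, a thioredoxin-binding protein reported to bind NLRP3, was higher in the striatum (1315 ± 181.1 CPM, SD, n = 12) than in the midbrain (940.6 ± 210.9), and Ninj1, which ruptures the membrane after gasdermin pores form, was higher in the PFC (278.4 ± 51.3 against 205.6 ± 23.1). Gbp2, an interferon-induced GTPase, was lower than in the midbrain by 0.84 ± 0.22 (SE, log2) in the striatum and 0.88 ± 0.22 in the PFC. Nek7, which binds NLRP3, averaged 285.6 CPM and was not called.

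Of 12 other sensors and adaptors, 3 passed: Naip2 and Naip5, which bind bacterial proteins, and Nlrc4, their partner. Naip1 and Naip6 did not (edgeR adjusted p = 0.757 and 0.652). Naip2 was 60.5 ± 4.81 CPM in the midbrain and 50.1 ± 4.22 in the striatum, and Naip5 was 20.04 ± 2.06 and 16.3 ± 1.74 (SD, n = 12). Nlrc4 itself was near 0, with a mean of 0.048 CPM, so its fold change carries little weight. The Naip genes are close copies, and reads may be divided between them.

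Among 9 IL-1 family genes with a row, Il1r1, the signalling receptor for IL-1, was low and lower outside the midbrain, at 2.89 ± 0.94 CPM in the midbrain, 1.12 ± 0.46 in the striatum and 0.779 ± 0.533 in the PFC (edgeR log2 difference −1.37 and −1.92). Il1rl2, the IL-36 receptor, was 61.5 ± 11.4 CPM in the midbrain and was lower in the striatum (−0.45 ± 0.11) and the PFC (−0.62 ± 0.11). Il33, an alarmin, was higher in the striatum (5.02 ± 2.37 CPM) than in the midbrain (2.42 ± 1.202; log2 1.05 ± 0.39) and the PFC (1.47 ± 1.18). Oligodendrocyte sums were also highest in the striatum (476.9 CPM, against 398.2 and 334.9), and their part in the Il33 difference was not tested.

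On the TNF side, 2 of 12 genes passed: Tnfrsf1b, the receptor TNFR2, averaged 320.7 CPM in the midbrain and 370.3 in the PFC, below the fold required, and Birc3, an inhibitor of apoptosis in the TNF pathway, fell by 0.57 ± 0.12 in the striatum. Tnfaip3, which turns NF-κB off, was the most abundant of that list at 816.2 CPM and was not called. Of 23 genes of signalling to NF-κB, Tlr2 (−0.65 ± 0.13 in the striatum), Ikbkg and Nfkb1 passed, and only Tlr2 exceeded the fold required. Of 10 other cytokines, Il6 was lower in the striatum (−0.39 ± 0.18) and the PFC (−0.69 ± 0.19), and Il16 was higher in both (0.34 ± 0.10 and 0.32 ± 0.10).

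Over 35 libraries with group means removed, each member's most similar gene among 9540 others differed, and libraries share cells, depth and dissociation. Nlrp3 went with Hnrnpa2b1 (r = 0.889), Pycard with Psma5 (0.957), Gsdmd with Ifitm10 (0.919), Il1b with Il1a and Nr4a1 (0.907 and 0.895), and Il18 with Bloc1s2 (0.821). Casp4 went with Pde4b (0.772) and Birc3 (0.748), Tnf with Sh3bgrl3 (0.723) and Casp1 with Nufip1 (0.692). Between members, some relations were negative: Pycard had r = −0.675 with Gsdmd, −0.608 with Nlrp3 and −0.583 with Il1rn, but 0.546 with Il18. Only means of region and sex were removed, so differences between mice 1 to 6 and mice 7 to 12 remained in these r. In the midbrain, these subsets averaged 288.8 and 197.4 CPM for Pycard, 102.8 and 131.8 for Gsdmd and 33 and 44.17 for Nlrp3. For Il1rn they averaged 4.978 and 7.573 CPM, and for Il18 30.27 and 27.04. The part of this split in the r was not tested, nor were the values over libraries.

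Promoters are shown for the 5 genes called for region and for Il1b, the abundant neighbour of Il1a that varied widely between libraries. Each is the 250 bases before the annotated start in the RefSeq table for GRCm38.p6, which held windows for 9 of the 10 members. Windows were searched on both strands for the κB site (by name), AP-1 (TGANTCA), the cyclic AMP element (TGACGTCA), C/EBP (TTGCNNAA), PU.1 (GAGGAA) and the interferon element (by name), and on the gene's strand for TATAAA. Capitals mark matches to κB, AP-1 and TATAAA.
Il1a, chr2:129309973-129310222, minus strand: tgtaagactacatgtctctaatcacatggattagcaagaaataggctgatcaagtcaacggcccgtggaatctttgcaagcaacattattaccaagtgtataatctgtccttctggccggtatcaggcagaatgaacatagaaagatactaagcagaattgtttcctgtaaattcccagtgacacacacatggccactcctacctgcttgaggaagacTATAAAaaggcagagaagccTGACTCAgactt
Il1b, chr2:129371140-129371389, minus strand: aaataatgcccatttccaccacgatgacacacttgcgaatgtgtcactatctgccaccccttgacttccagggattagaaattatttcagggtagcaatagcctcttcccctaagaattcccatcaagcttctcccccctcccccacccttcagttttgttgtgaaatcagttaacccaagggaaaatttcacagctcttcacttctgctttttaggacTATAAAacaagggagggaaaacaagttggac
Tnf, chr17:35202008-35202257, minus strand: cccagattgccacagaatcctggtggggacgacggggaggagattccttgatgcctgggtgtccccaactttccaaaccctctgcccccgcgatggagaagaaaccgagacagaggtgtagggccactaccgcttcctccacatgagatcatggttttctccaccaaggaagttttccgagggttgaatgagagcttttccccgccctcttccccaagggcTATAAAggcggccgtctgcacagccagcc
Casp4, chr9:5308599-5308848, plus strand: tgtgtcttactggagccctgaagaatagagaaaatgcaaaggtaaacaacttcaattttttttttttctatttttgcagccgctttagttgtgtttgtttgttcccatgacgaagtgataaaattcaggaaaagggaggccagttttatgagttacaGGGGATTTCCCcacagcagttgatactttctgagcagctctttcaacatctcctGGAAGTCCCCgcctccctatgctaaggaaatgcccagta
Il1rn, chr2:24336610-24336859, plus strand: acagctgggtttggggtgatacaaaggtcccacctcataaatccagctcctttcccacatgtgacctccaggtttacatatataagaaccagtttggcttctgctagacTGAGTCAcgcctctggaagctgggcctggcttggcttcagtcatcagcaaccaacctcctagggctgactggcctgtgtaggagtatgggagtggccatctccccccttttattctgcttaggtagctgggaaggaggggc
Casp1, chr9:5298267-5298516, plus strand: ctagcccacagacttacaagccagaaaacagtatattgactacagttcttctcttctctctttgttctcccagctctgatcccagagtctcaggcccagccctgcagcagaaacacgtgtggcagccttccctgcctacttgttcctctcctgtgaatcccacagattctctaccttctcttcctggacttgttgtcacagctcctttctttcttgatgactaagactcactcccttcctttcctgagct

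TATAAA stood 32, 31 and 29 bases before the start of Il1a, Il1b and Tnf, the 3 most abundant members per kilobase, and in 7.59% of 32851 promoters of all genes. AP-1 letters were found in Il1a and in the Il1rn window shown, but not in the windows of the other Il1rn starts (6.75% of promoters). κB letters were found in Casp4, in 2 overlapping matches and another further downstream, and in the upstream window of Nlrp3 but not its other window (7.25%). The Casp1 window held none of these 3, although it held PU.1 letters, as did 23.3% of promoters. A match is a run of letters and was not tested for binding.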

How the data were processed

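RNA from sorted tdTomato-positive microglia was made into cDNA with Smart-Seq HT and sequenced in pairs of 50-base reads; the kit does not mark strand. The authors trimmed reads with Trimmomatic, mapped them with HISAT2 to Ensembl GRCm38 and deposited raw counts per gene. The paper states a filter of at least 1 CPM in at least 1 group of sex and region. By mean CPM, the deposited genes do not all meet it. Naip1, for example, averaged 0.0954 CPM in the midbrain, 0.08225 in the striatum and 0.116 in the PFC. Of the 21236 genes, 12297 had a mean of at least 1 CPM. Shares of all genes therefore include many genes below that mean. The counting tool is not given in the sources used here. Samples were grouped by their labels for region and sex. The total count per library lay between 37680501 and 54131421, so depth limits only Il1rn among the members, and floors cover counting error only.

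From these counts, edgeR 4.0.16 (R 4.3.3) fitted region and sex with TMM scaling and a robust quasi-likelihood test on all 21236 genes, with Benjamini-Hochberg adjustment. Log2 CPM used a prior count of 2. The study's rules for calls were kept: adjusted p under 0.05 for region, then p under 0.05 with fold change over 1.2 for a pair, and the same for sex. Interactions came from a fit with a mean for each of the 6 groups. The fit was tested on simulated data. Correlations over 12 mice used 100000 permutations, two-sided. Intervals are 95%, from the standard error.

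Mouse numbers mark the same animal, and deviations from group means correlated at a mean r of 0.325 for 34 pairs of libraries of one mouse and −0.0631 for 170 pairs of different mice of one sex, so blocked values are given where they change a call. The p-values for region without the block treat libraries of one mouse as separate.

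The members, the pathway lists and the marker lists were chosen with earlier results of these data known. The genes named are the 10 members and the pathway genes called for region. Nek7 and Tnfaip3, abundant but not called, are also named, as are Naip1 and Naip6 beside the called Naip genes. Other abundant pathway genes that were not called, such as Nfkbia and Nfkbiz, are left out. Marker genes are named where their list is described. For each member, up to 3 genes most correlated with it are named, among those with a mean of at least 5 CPM. Alternatives covered DESeq2 1.42.0, limma 3.58.1 (voom), other size factors, filters on low counts, blocks, covariates, subsets of mice and each mouse left out. Some fits were added after the data were seen. These left out the midbrain library of female mouse 6 or the 3 libraries lowest in the ex vivo list, or joined the mouse block with the ex vivo covariate. Genes were placed with GENCODE M21, and promoters came from RefSeq on GRCm38.p6.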

Additional observations from a re-analysis of the deposited data

Results flagged for a closer look

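In 60 groups of region, sex and gene, 6 had a library whose gap to the nearest other exceeded Dixon's 95% critical value; chance flags about 1 group in 20. Of these, 4 were libraries of female mouse 12: Nlrp3 in the PFC was 55.96 CPM against 32.92 for the next highest of 6 females, Il1b in the PFC was 442.5 against 221.4, and Casp4 was 43.85 against 33.72 in the midbrain and 32.68 against 26.28 in the PFC. Each was the highest of its group. Leaving out mouse 12 raised the edgeR adjusted p for region of Casp4 from 0.0167 to 0.0534. Il18 in the midbrain of male mouse 5 was 39.02 CPM, against 26.74 for the next highest of 6 males. Il1rn in the striatum of male mouse 9 was 5.524 CPM against 1.836 for the next highest of 6 males. What sets these libraries apart was not tested.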

How the results depend on the processing

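For the members, no fold change that was called changed sign under any alternative run. Of 5 members with an effect of region, mice 1 to 6 alone left 1, mice 7 to 12 alone 2, males alone 1, females alone 3 and the ex vivo covariate 3. Members called in the PFC against the midbrain (2) were 4 with DESeq2, limma-voom and the mouse block, 7 without the 3 libraries lowest in the ex vivo list, and 1 with at least 10 counts in every sample (Il1rn drops out), in mice 1 to 6 and in males. Members called in the striatum against the midbrain (5) were 1 in mice 1 to 6 and in males, 2 in mice 7 to 12, and 3 in females and with the ex vivo covariate. The 1 member called between striatum and PFC became 2 with the block, the block with the ex vivo covariate, limma-voom and a covariate for mice 1 to 6 against 7 to 12, and 0 in mice 1 to 6, in mice 7 to 12, in males and with an adjusted p for the pair. The 1 member called for sex became 0 in mice 7 to 12, with an adjusted p and with counts summed per mouse. Pathway genes with an effect of region (16) were 1 in mice 1 to 6 and in males, 10 in mice 7 to 12 and 6 in females. Subsets have fewer samples. Among these alternatives, the share of all genes called is given above only for the mouse block and for counts summed per mouse. For the others, and for the fits that left out a mouse, a change in the count cannot be told apart from a change over the whole table.

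Leaving out each mouse in turn gave 3 to 7 members for region, 2 to 5 for PFC against midbrain, 3 to 7 for striatum against midbrain, 1 to 2 for striatum against PFC, 0 to 1 for sex, 0 to 0 for the interaction and 12 to 20 pathway genes. Casp1, Il1a and Il1rn passed for region in all 12 of these fits, Casp4 in 11 and Tnf in 3. The mouse block gave 6 members for region and 6 for striatum against midbrain; it added Nlrp3 to both. Nlrp3 and Il1b passed for region too with DESeq2 (adjusted p 0.0417 and 0.0328) and with limma-voom (0.0367 and 0.0348). Of 10 correlations, 2 passed by Pearson and 4 by Spearman. Of 10 members, 5 kept their place in the order of levels by CPM without length and 6 with the principal transcript.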
